A study of Mus musculus with 3 samples.

Results

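The complement genes described here were C1qa, C1qb, C1qc, C3, Cfb, Cfp, Serping1, C3ar1 and C5ar1, 9 of the 22238 genes listed in all 3 libraries. They were chosen by name, as components, regulators and receptors of the complement system, and all 9 were measured. EAE, a mouse model of multiple sclerosis, was induced in wild-type (WT in the titles) female C57BL/6J mice of 10 to 12 weeks with MOG peptide in complete Freund's adjuvant and 250 ng of pertussis toxin at 2 and 24 hours. At days 14 to 15 after immunization, CD45+ CD11b+ Ly6G- cells were sorted as bone marrow monocytes (also Ly6Chi and CD11c-), spinal cord monocytes (also CD64+ and Ly6Chi) and monocyte-derived APCs of the spinal cord (also CD64+ and Ly6Clow/-). Each population was 1 library of pooled cells, from 13 mice in 2 experiments for the bone marrow and 18 mice in 3 experiments for the spinal cord, whose cells were sorted into both spinal cord populations, and all mice were immunized, with no unimmunized group. Bone marrow was flushed out and its cells were first enriched with a monocyte isolation kit. Spinal cords were instead digested with collagenase D and DNase I, and their cells were taken from a Percoll gradient. One label field of the APC sample names the bone marrow, whereas its title, its tissue label and the series design name the spinal cord, and the sample was used as spinal cord APCs.

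Complement is a cascade of plasma and cell-derived proteins that tags targets for phagocytosis and calls in leukocytes. In the classical pathway C1q, built from the chains of C1qa, C1qb and C1qc, binds a target and activates the proteases C1r and C1s, which cleave C4 and C2 to form an enzyme that splits C3. In the alternative pathway factor B (Cfb) joins the larger C3 fragment, and properdin (Cfp) stabilizes the resulting enzyme. The small fragments C3a and C5a act through C3ar1 and C5ar1, and the C1 inhibitor (Serping1) blocks C1r and C1s. In the CNS, microglia are a known source of C1q.

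The deposited estimated reads summed to 33280643 for the bone marrow library, 27283795 for spinal cord monocytes and 28209589 for APCs. Levels are given as TPM, a length-corrected share of transcripts, rescaled to the same sum over the 22238 common genes. Levels carry a 95% Wilson interval computed from the share of reads. Fold changes are log2 ratios of reads scaled by size factors, with a 98% interval. A gene was called higher or lower where that interval lay wholly beyond a 2-fold change and TPM exceeded 3 in one or both libraries of the pair. Since each population was 1 library, differences between them could not be set against replicates. All intervals reflect the counting of reads alone, and duplicate reads from PCR may make them too narrow. The 6 monocyte markers examined were over 3 TPM in every library. Their summed TPM was 10339 in the bone marrow library, 8889 in spinal cord monocytes and 3488 in APCs, so it was lowest in APCs. The summed TPM of 10 microglial markers was 14.0 in the bone marrow library, 169.5 in spinal cord monocytes and 457 in APCs, with 1, 9 and 10 of them over 3 TPM.

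Between bone marrow and spinal cord monocytes, 7 of the 9 complement genes were called higher in the spinal cord and 0 lower. Over all genes in this comparison 13.6% were called higher and 11% lower. The 7 were the 3 C1q chains, Cfb, Serping1, C3ar1 and C5ar1, and their log2 fold changes ranged from 2.01 for C5ar1 to 9.92 for C1qa. C3 and Cfp were not called. The median log2 fold change of the 9 genes was 6.04, against -0.17 over the 10072 genes compared. Between spinal cord monocytes and APCs, 2 of the 9 genes, C1qa and C1qc, were called higher in APCs and 0 lower, against 1.94% higher and 1.66% lower over all genes. The median of the 9 genes was 0.31 in this comparison and that of the 9734 genes compared was -0.03. In bulk libraries such as these, a higher share of cells that express a gene and more RNA per cell cannot be told apart. Over all genes 1369 were called higher and 1104 lower in the first comparison, 1239 and 1394 when scaled by total reads, and 1315 and 1890 with both TPM plus 1 and a plain 2-fold change in place of the interval. In the second, 189 were called higher and 162 lower, against 232 and 324 with reads divided by effective length and 274 and 528 with TPM plus 1 and a plain 2-fold change.

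**Figure D1:**
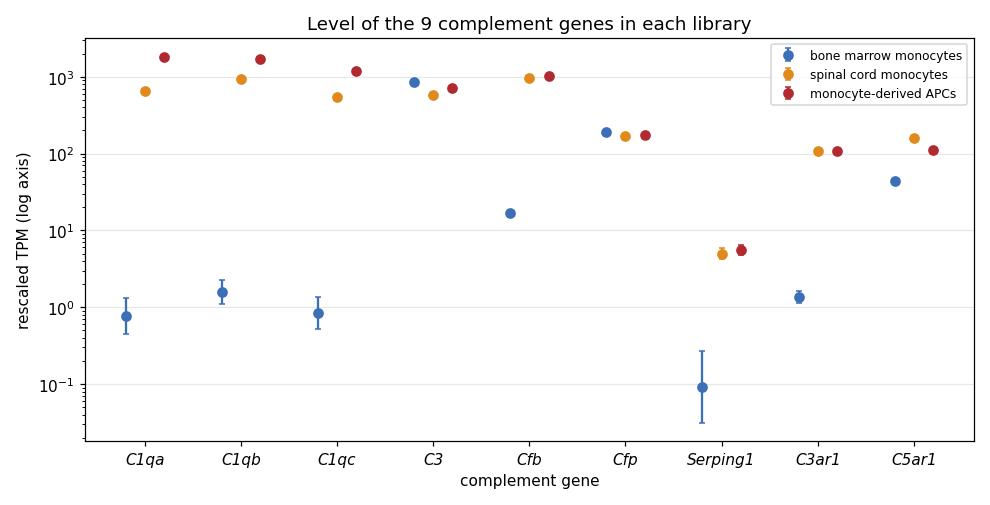
Rescaled TPM of the 9 complement genes on a log axis in the 3 libraries, as points with 95% Wilson intervals, many of them smaller than the point. C1qa, C1qb, C1qc, C3ar1 and Serping1 lay under 3 TPM in the bone marrow, and C3 and Cfp lay at similar heights in all 3 libraries.

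The genes of the 3 C1q chains lie next to each other on the minus strand of chromosome 4 of GRCm38, C1qb at chr4:136880129-136886187, C1qc at chr4:136889804-136893065 and C1qa at chr4:136895917-136898803, within 18675 bases. C1qa had 13 reads in the bone marrow library, 9612 in spinal cord monocytes and 30148 in APCs, or 0.778, 649.5 and 1830 TPM. C1qb had 28, 14485 and 29901 reads in the same order, or 1.58, 921 and 1711 TPM. C1qc had 17, 9908 and 23588 reads, or 0.842, 552 and 1187 TPM. Each chain was thus under 3 TPM in the bone marrow, and each was highest in APCs, with no overlap of the TPM intervals between libraries. In spinal cord monocytes the log2 fold change over the bone marrow was 9.92 for C1qa (98% interval 9.10 to 10.93), 9.44 for C1qb (8.86 to 10.12) and 9.59 for C1qc (8.86 to 10.47), so the 3 intervals overlapped. On the scale of TPM plus 1 these values were 8.51, 8.48 and 8.23.

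From spinal cord monocytes to APCs the chains differed in size of change. On the log2 scale C1qa rose by 1.50 (98% interval 1.46 to 1.54) and C1qc by 1.10 (1.06 to 1.14), and both were called. C1qb had 0.90 (0.86 to 0.93) and was not called. Neither call remained when libraries were assumed to vary with a coefficient of variation of 0.2. The ratio of C1qa to C1qb, in TPM, was 0.493 (95% interval 0.258 to 0.944) in the bone marrow library, 0.705 (0.687 to 0.724) in spinal cord monocytes and 1.07 (1.05 to 1.09) in APCs. Thus C1qb was the more abundant of the pair in both monocyte libraries and C1qa in the APC library. The effective lengths behind these TPM values were 782, 764 and 790 bases for C1qa and 830, 812 and 838 bases for C1qb, in the same order of libraries. The ratio of C1qb to C1qc was 1.88, 1.67 and 1.44.

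**Figure D2:**
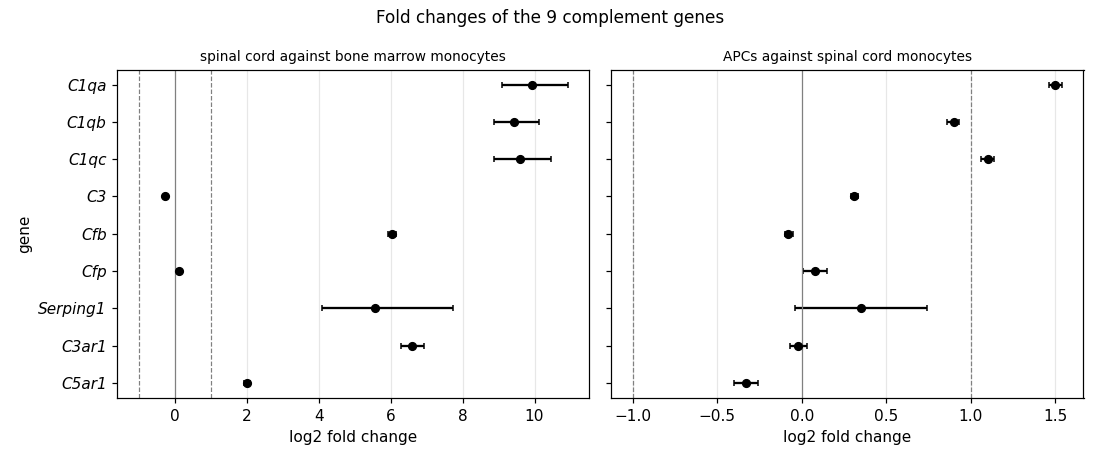
Log2 fold change of the 9 complement genes in spinal cord against bone marrow monocytes (left) and in APCs against spinal cord monocytes (right), with 98% intervals from counting error. Dashed lines mark a 2-fold change, which 7 genes passed on the left and C1qa and C1qc on the right, and the sign of the values of Cfp on the left and of Cfb and C3ar1 on the right changed with the scaling.

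The microglial markers were higher in the same libraries as the C1q chains. From the bone marrow to spinal cord monocytes their log2 fold changes ranged from 1.96 to 9.22 with a median of 6.01, and 9 of 10 were called. All 10 markers also had a positive log2 fold change from spinal cord monocytes to APCs, from 1.06 for Fcrls to 2.09 for Sall1 with a median of 1.45, and 9 were called. Tmem119, a marker of resident microglia, had 77 reads in the bone marrow library, 973 in spinal cord monocytes and 2704 in APCs. Sall1, a transcription factor of microglia, had 0, 3.10 and 13.5 TPM, and Slc2a5 0, 1.69 and 3.38 TPM. No marker of the list was at 0 in a spinal cord library. The summed TPM of the C1q chains was 3.20, 2122 and 4728, which was 0.229, 12.5 and 10.3 times that of the microglial list. The study's first gate took cells with high CD45, which was meant to leave microglia out. The paper described Sall1, Slc2a5, Siglech, Bhlhe41 and Gpr34 as low in its monocytes and APCs. It noted slightly raised Tmem119 and P2ry12 in its APCs and could not exclude a small number of microglia among them. It estimated an upper limit of their share from Tmem119. The part of microglial RNA in the C1q levels was not tested. The 6 markers of CNS-associated macrophages summed to 15.7, 36.8 and 51.1 TPM, and the 6 markers of conventional dendritic cells to 40.8, 21.3 and 28.3 TPM. The latter sum was mostly Flt3 in the bone marrow (37.8 TPM), and without it the other 5 summed to 3.01, 17.6 and 21.7 TPM. Lists of T cell and astrocyte markers were also higher in both spinal cord libraries, with sums of 0.698, 58.2 and 85.9 TPM for T cells and 6.38, 39.0 and 60.6 TPM for astrocytes, and neither was tested as a source. Neutrophil markers summed to 1239, 192 and 414 TPM, B cell markers to 8.70, 3.52 and 3.79 TPM, and oligodendrocyte markers to 103, 77.3 and 74.8 TPM. These sums were highest in the bone marrow library, though not every marker was. The neutrophil markers Retnlg (1.77, 16.7 and 57.9 TPM) and Cxcr2 (2.56, 9.095 and 6.75 TPM) were lowest there. In APCs against spinal cord monocytes the neutrophil markers went both ways. Ngp, Ltf, Retnlg, Camp and Mmp8 had log2 fold changes of 2.69, 2.44, 1.83, 1.42 and 0.19. Elane, Cxcr2, Mpo and Ly6g had -1.98, -0.46, -0.33 and -0.03.

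**Figure D3:**
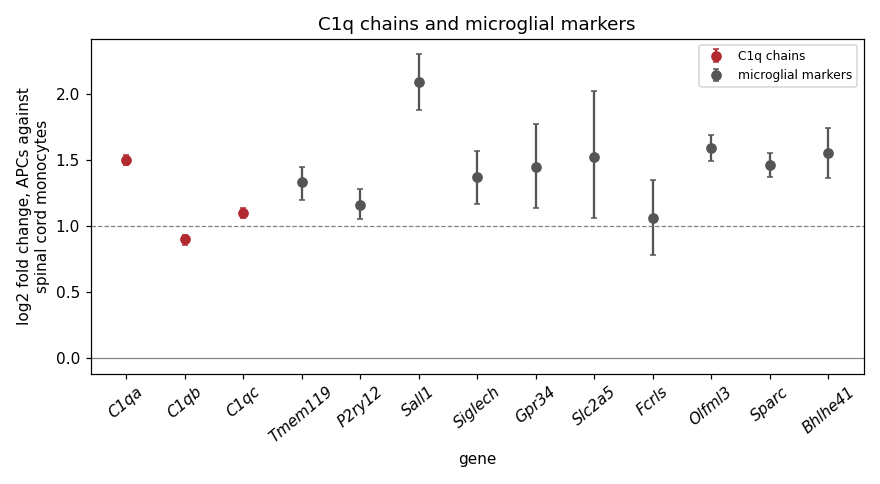
Log2 fold change from spinal cord monocytes to APCs of the 3 C1q chains and of 10 microglial markers, with 98% intervals from counting error. All 13 genes lay above 0, and only C1qb had its point below the dashed line of a 2-fold change.

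Promoters of C1qb, C1qc and C3ar1, which had the largest rises in the spinal cord among members with an entry, were taken from the RefSeq table on GRCm38.p6, which gives 250 bases before and 50 after the start of a gene. It held 6 of the 9 members, and C1qa, Cfb and Serping1 were not among them. The pair of C1q promoters is shown because both chains rose alike from the bone marrow to spinal cord monocytes, and that of C3ar1 beside them as a member that rose there but not in APCs. They are printed in the direction of transcription with matches to 5 motifs in capitals. The promoter of C1qb spans chr4:136886151-136886450, that of C1qc chr4:136892865-136893164 and that of C3ar1 chr6:122856108-122856407, all on the minus strand.
C1qb: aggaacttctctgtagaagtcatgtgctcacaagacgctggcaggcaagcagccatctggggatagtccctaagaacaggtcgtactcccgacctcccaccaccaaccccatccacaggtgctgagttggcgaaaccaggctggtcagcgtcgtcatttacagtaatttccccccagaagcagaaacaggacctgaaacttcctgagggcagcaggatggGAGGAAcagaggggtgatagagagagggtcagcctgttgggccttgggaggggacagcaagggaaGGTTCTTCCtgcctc
C1qc: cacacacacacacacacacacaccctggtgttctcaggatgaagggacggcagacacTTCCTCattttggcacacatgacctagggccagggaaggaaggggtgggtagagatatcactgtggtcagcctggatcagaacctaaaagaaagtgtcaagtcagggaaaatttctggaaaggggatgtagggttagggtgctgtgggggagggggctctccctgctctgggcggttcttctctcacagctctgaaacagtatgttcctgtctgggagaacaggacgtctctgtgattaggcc
C3ar1: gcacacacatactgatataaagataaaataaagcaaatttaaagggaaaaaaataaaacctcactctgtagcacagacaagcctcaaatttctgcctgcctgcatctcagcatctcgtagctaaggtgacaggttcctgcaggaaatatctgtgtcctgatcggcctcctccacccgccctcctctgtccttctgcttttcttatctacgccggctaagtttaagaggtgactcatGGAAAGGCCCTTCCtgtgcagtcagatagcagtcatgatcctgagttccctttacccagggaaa

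The motifs searched on both strands were GAGGAA (PU.1 core), GAAANNGAA (ISRE core), TTCNNNGAA (GAS), GGNNNTTCC (NF-kappa B core) and TGCTGAC (MARE). PU.1 is a transcription factor of myeloid cells, ISRE and GAS are elements of interferon-responsive genes, and NF-kappa B acts in inflammatory responses. The promoter of C1qb held GAGGAA at 30 to 25 bases before the start and GGTTCTTCC after it. That of C1qc held the PU.1 core once, on the other strand, as TTCCTC. C3ar1 held 2 overlapping matches to the NF-kappa B core, GGAAAGGCC and GGCCCTTCC, just before its start. Of the other members in the table, C5ar1 held 1 ISRE core (TTCCTTTTC), Cfp 2 PU.1 cores and C3 none of the 5. Over the 32851 promoters of the table, 28.3% held GAGGAA, 18.5% GGNNNTTCC, 8.56% GAAANNGAA, 8.30% TTCNNNGAA and 4.67% TGCTGAC, so the motifs found are common ones. These matches are letters in a window and say nothing of binding.

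C3, the component that both activation routes share, lies at chr17:57203970-57228136. It had 87671 reads in the bone marrow library, 53207 in spinal cord monocytes and 73135 in APCs, or 842, 577 and 718 TPM. It was therefore abundant in all 3 libraries and lowest in spinal cord monocytes, and it ranked 183, 301 and 219 among the common genes. Its log2 fold changes, -0.26 (98% interval -0.28 to -0.24) and 0.31 (0.29 to 0.33), were not called.

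The alternative pathway members behaved differently from each other. Cfb had 874, 41853 and 43938 reads, in the same order of libraries, or 17.0, 966 and 1018 TPM. It was the most abundant of the 9 genes in spinal cord monocytes. In spinal cord monocytes it rose 65.8-fold, or by 6.04 on the log2 scale (98% interval 5.93 to 6.16), and it had -0.08 in APCs, which was 0.15 with reads divided by effective length. The gene lies at chr17:34856374-34862518, 85 bases from C2, and the readthrough gene Gm20547 that overlaps it was listed with 0 reads in every library. Cfp, on chromosome X, had 5527, 4340 and 5089 reads, or 190.5, 168 and 176 TPM. Its log2 fold changes were 0.11 and 0.08, and the first was -0.05 with total reads and -0.18 with TPM plus 1, so the direction of the first depended on the scaling.

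Serping1, the C1 inhibitor, lies at chr2:84765387-84775444. It had 3 reads in the bone marrow library, 126 in spinal cord monocytes and 178 in APCs, or 0.0930, 4.99 and 5.62 TPM. It was the least abundant of the 9 genes in every library, and in the bone marrow it stood at the floor of 3 reads. Its log2 fold change was 5.57 in the spinal cord, with a wide 98% interval of 4.08 to 7.74 and a value of 2.45 on the scale of TPM plus 1, which understates changes of low genes, and 0.35 (-0.04 to 0.74) in APCs. The summed TPM of 6 fibroblast markers was 0.0365, 4.74 and 2.92 in the same order, and that of 6 endothelial markers 17.5, 77.2 and 47.0, and the part of such cells in the level of Serping1 was not tested.

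C3ar1, the receptor of C3a, had 119, 8440 and 9232 reads, or 1.37, 108 and 109 TPM. It was called higher in the spinal cord, with 6.60 on the log2 scale (98% interval 6.30 to 6.92; 5.52 with TPM plus 1), and had -0.02 in APCs, a value whose sign changed with 4 of the scalings tried. C5ar1, the receptor of C5a, had 1750, 5121 and 4507 reads, or 43.5, 161 and 111 TPM. It was the more abundant of both receptors in the bone marrow. It rose by 2.01 (1.92 to 2.10) in the spinal cord and had -0.33 (-0.40 to -0.26) in APCs, where it was not called. By TPM C5ar1 stood above C3ar1 in both monocyte libraries, and in APCs their intervals overlapped (C5ar1 107 to 114 TPM, C3ar1 107 to 112 TPM). The gene of C3ar1 lies at chr6:122847138-122856161 and that of C5ar1 at chr7:16246743-16259540.

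The order of the 9 genes by TPM differed between libraries. In bone marrow monocytes C3 led, followed by Cfp, C5ar1 and Cfb, and C3 made up 76.7% of the summed TPM of the 9 genes. The 3 C1q chains together made up 0.292% there. C1qb, C3ar1, C1qc and C1qa followed Cfb, with intervals that overlapped between neighbours, and Serping1 was last. In spinal cord monocytes Cfb led, followed by C1qb, C1qa, C3, C1qc, Cfp, C5ar1, C3ar1 and Serping1, and only Cfp and C5ar1 among neighbours had overlapping intervals. The C1q chains made up 51.7%. In APCs C1qa, C1qb and C1qc led, followed by Cfb, C3, Cfp, C5ar1, C3ar1 and Serping1, and the C1q chains made up 68.9%. The summed TPM of the 9 genes was 1098, 4108 and 6866. C3ar1 and C5ar1 summed to 44.8, 269 and 220 TPM.

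**Figure D4:**
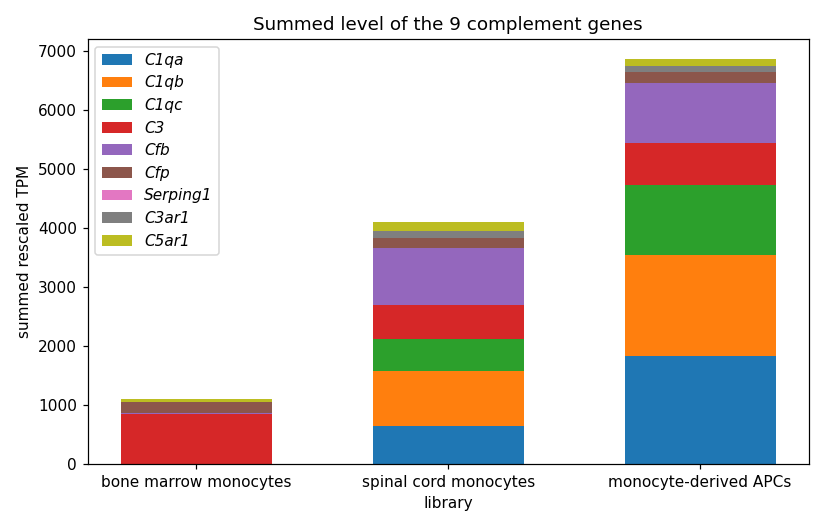
Summed rescaled TPM of the 9 complement genes in each library, with 1 colour per gene. The bars reach 1098 in the bone marrow library, 4108 in spinal cord monocytes and 6866 in APCs, and the C1q chains hold 0.292%, 51.7% and 68.9% of them.

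A wider list of 52 other genes of complement, of which 51 were measured, was described beside these. Of them 16 were over 3 TPM in at least 1 of the libraries of each comparison. In the spinal cord 6 of the 16 were called higher and 2 lower, with a median log2 fold change of 0.51, against 13.6% higher and 11% lower over all genes. One of the 6, Itgax, was tied to a gate, as given with its values. In APCs 1 was called higher and 0 lower, against 1.94% and 1.66%. C1ra, the protease C1r, had 9.54 TPM in the bone marrow, 45.4 in spinal cord monocytes and 61.2 in APCs, and rose by 2.56 in the spinal cord. C1s1, the protease C1s, had 7, 713 and 1102 reads, or 0.119, 19.7 and 26.3 TPM, and rose 128-fold (98% interval on the log2 scale 5.93 to 8.40). The components C4b and C2 had log2 fold changes of 2.47 and 3.75 there. C4b had 11.2, 46.1 and 50.6 TPM and has a close paralog, C4a, so reads could be split between them. C2 had 0.935, 3.09 and 2.29 TPM, close to the threshold, and an effective length of 450 bases in the bone marrow library against 1571 in spinal cord monocytes. With reads divided by effective length its value was 1.85 and it was not called, and it was not called with a threshold of 4 TPM.

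Downstream of C1q in the classical route, C1ra, C1s1 and C4b were thus called higher in the spinal cord, C2 only under part of the settings, and none of the 4 was called in APCs. The calls of C1ra and C4b did not remain with an assumed coefficient of variation of 0.4. Fcnb, ficolin B, a recognition protein of the lectin pathway, had 70.6, 3.71 and 2.19 TPM and fell by 3.99 in the spinal cord. The 7 genes of the terminal pathway, which forms the membrane pore, had at most 16 reads in any library. Cfd, factor D, the protease that activates factor B, was listed with 0 reads in all 3 libraries, where the floor of 3 reads was at most 0.249 TPM.

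Among the regulators, Clu (clusterin) rose in the spinal cord by 2.06, from 2.39 to 8.19 TPM, a call lost with an assumed coefficient of variation of 0.2. Cr1l, the membrane regulator of C3 cleavage known as Crry, had 111, 77.4 and 73.0 TPM and was not called. In APCs its log2 fold change was 0.06, and -0.01 with reads divided by effective length. Among the receptors, Itgax, the alpha chain of complement receptor 4, had 0.247, 48.9 and 121 TPM and was called in both comparisons, with 7.55 (98% interval 6.87 to 8.36) and 1.59 (1.52 to 1.66). Its protein, CD11c, was gated out of the bone marrow monocytes, so the first value is not a finding. Itgam and Itgb2, the chains of complement receptor 3, had 485, 533 and 510 TPM and 626, 919 and 1175 TPM, and were not called. CD11b, the product of Itgam, was part of every gate. Cd93, once described as a C1q receptor, fell by 1.27 in the spinal cord (108, 36.1 and 30.4 TPM), and this call and that of Itgax in APCs were also lost with 0.2. Calr and Lrp1, which take part in the uptake of C1q-bound targets, had 761, 971 and 1234 TPM and 171, 188 and 139 TPM and were not called.

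**Figure D5:**
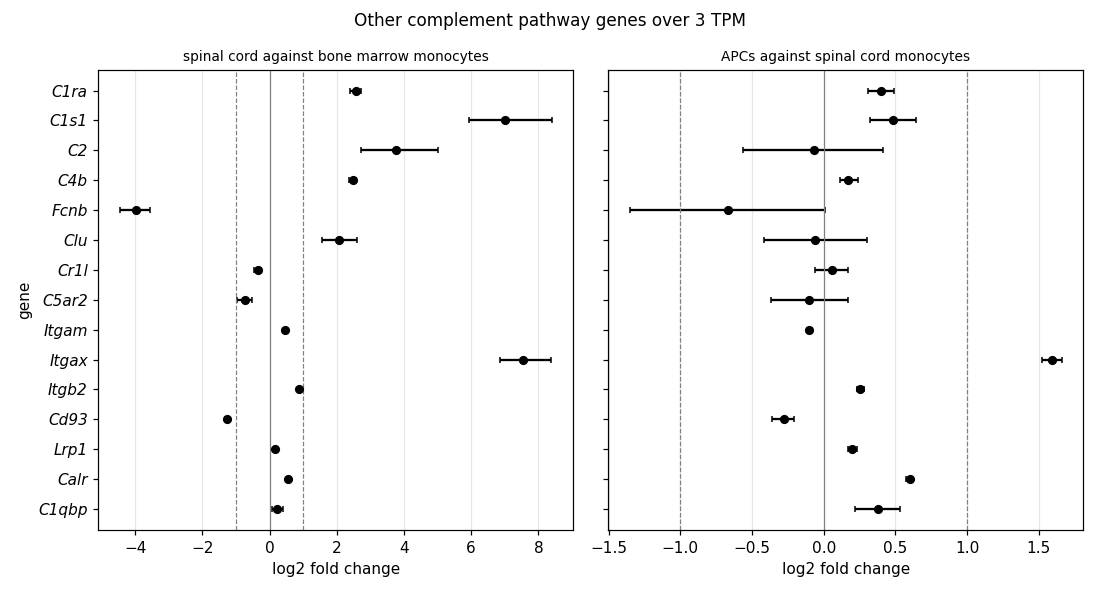
Log2 fold change of 15 of the 16 other complement genes over 3 TPM, in spinal cord against bone marrow monocytes (left) and in APCs against spinal cord monocytes (right), with 98% intervals from counting error and dashed lines at a 2-fold change. C1ra, C1s1, C2, C4b, Clu and Itgax lay above the line on the left, Fcnb and Cd93 below it, and Itgax lay above it on the right.

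Genes with a pair of log2 fold changes like that of each member were found by the distance between the pairs, among 10307 genes over 3 TPM in at least 1 library. With 3 libraries the measure rests on 2 values per gene. Nearest to the mean of the C1q chains were Pmepa1 (distance 0.41), Tmeff1 (0.47), Cd4 (0.53), Syngr1 (0.56) and Icos (0.59). Cd4, Syngr1 and Icos had 0 reads in bone marrow monocytes, so their fold changes depend on the 1 read added. Pmepa1 had 0.0109, 22.9 and 60.8 TPM and Tmeff1 0.0485, 26.9 and 46.55 TPM, so both were also very low in the bone marrow. Cd4 had 5.27 TPM in spinal cord monocytes and 10.5 in APCs, and Icos 6.30 and 10.6. The list of T cell markers was also higher in these libraries, and the part of T cell RNA in Cd4 and Icos was not tested. Nearest to Cfb were Cmklr1 (0.05), Map1b (0.13) and Spon1 (0.21), and Cmklr1, a receptor of chemerin, had 3.42, 186 and 179 TPM. For C3ar1 they were Dusp5 (0.08), Pdgfa (0.19) and Bhlhe40 (0.22), and for Serping1 Pdgfrl (0.12), Rai14 (0.13) and S1pr1 (0.18). For C5ar1 they were Lrrc27 (0.05), Alkbh2 (0.05) and Jak2 (0.06). The distance uses reads not corrected for effective length, and TPM can differ from it. Map1b had 0.0162, 3.25 and 0.930 TPM and Lrrc27 0.907, 5.75 and 1.83 TPM. By TPM both thus fell more in APCs than their log2 fold changes of -0.20 and -0.37 give, and Map1b was unlike Cfb. C3 and Cfp lay in the dense middle of the distribution, with Borcs8, Prex1 and Samsn1 within 0.01 of C3 and Ost4, Zfp664 and Mrpl46 within 0.02 of Cfp.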

How the data were processed

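RNA-Seq was done on 3 libraries, 1 per population, of monocytes of the bone marrow or spinal cord or of spinal cord APCs. The authors ran Salmon 0.14.1 on GENCODE vM22, combined each gene's transcripts and deposited TPM, normalized for effective length and library size, and estimated counts, which are not normalized. The monocyte files list 54432 genes and the APC file 22242, from another transcript set that the sources used here do not describe. TPM was rescaled over the 22238 common genes, which held 84.9%, 85.3% and 100.0% of TPM.

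Estimated counts were rounded. Differential expression followed the definition of GFold, computed anew, from gamma distributions of reads plus 1, with a threshold of 3 TPM. Median-of-ratios size factors were taken for each pair of libraries, a choice made after factors over all 3 libraries had been computed, which are an alternative. With 1 library per population the conditions could not be tested, and p-values are not given. Symbols and coordinates are those of GENCODE M21 (GRCm38). The steps were tested on simulated data.

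The 9 members and all lists were chosen with earlier results of these data known. Named were the 9 members, the called and the 10 most abundant genes of the wider list, the 5 genes nearest to the mean of the C1q chains and the 3 nearest to each other member, and the most abundant marker genes and those at 0. All neutrophil markers were also named. The result of 1 gene of the wider list is not reported here. The alternatives were total reads, TMM factors, reads divided by effective length, a TPM threshold of 4 or none, an assumed coefficient of variation of 0.2 or 0.4, 0.5 reads added, and TPM plus 1 or 0.1 with a plain 2-fold change. TPM as deposited, and Cfb with its readthrough gene, were also tried. R 4.3.3 with edgeR 4.0.16 (TMM factors only) and Python 3.11.15 with scipy 1.17.1, pandas 2.3.3, numpy 2.4.6 and matplotlib 3.10.9 were used.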

Additional observations from a re-analysis of the deposited data

How the results depend on the processing

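With 1 pooled library per population and intervals of counting error only, these data cannot separate a difference between populations from one between libraries, and bone marrow and spinal cord cells also came from different numbers of mice and experiments. The APC file came from another transcript set than both monocyte files, so differences of APCs cannot be told apart from that of the transcript sets. Among the 9 genes, the 7 called higher in the spinal cord were 7 under every scaling, filter and pseudocount tried. With an assumed coefficient of variation of 0.4, C5ar1 was no longer called. From spinal cord monocytes to APCs, 0 of the 9 genes were called with an assumed coefficient of variation of 0.2 or 0.4, since that construction widens the interval. Of 99 recomputed fold changes of members in each comparison, 95 kept their direction and call in the first and 88 in the second.

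Values that changed sign were uncalled and near 0, and the cause was not tested. For Cfp in the spinal cord they were -0.05 with total reads and -0.18 with TPM plus 1 or 0.1. For Cfb in APCs they were 0.15 with effective length and 0.08 with TPM plus 1 or 0.1. For C3ar1 in APCs they were 0.02 with total reads, 0.09 with effective length and 0.01 with TPM plus 1 or 0.1. Total reads moved the median of all genes by -0.16 in the first comparison and TPM plus 1 by -0.20.

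Of the wider list, C2 was not called with effective length or a threshold of 4 TPM, which left 5. Of this list 10 genes were called higher in the spinal cord with no filter and 3 with 0.4. In the same comparison 1 was called lower with 0.2 or 0.4, and 3 with TPM plus 0.1. In APCs 3 were called higher with no filter and 0 with 0.2 or 0.4. Over all genes, 2591 were called higher in the spinal cord with no filter, 905 with 0.2 and 627 with 0.4, and 460 and 228 lower, with 2137 lower for TPM plus 0.1. In APCs these counts were 389, 87 and 43 higher and 288, 35 and 14 lower, with 351 higher and 617 lower for TPM plus 0.1. Size factors over all 3 libraries, chosen after seeing the data, gave the same counts for the 9 genes and the wider list. No paired analysis was possible because each population had 1 library and no difference comes from a replicated test.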

Other observations

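Beyond the complement genes, other proteins that bind C1q or share its globular domain were examined from a list chosen after the data were examined. Lair1, an inhibitory receptor that binds collagens and C1q, had 33.5 TPM in the bone marrow library, 160.4 in spinal cord monocytes and 155 in APCs, and was called higher in the spinal cord at 2.32 on the log2 scale (98% interval 2.23 to 2.42). Scarf1, a scavenger receptor, had 2.60, 15.7 and 15.1 TPM and was called higher with 2.90 (2.60 to 3.21). Cd33 had 0.94 in the same comparison and was not called. Cd209a, a C-type lectin, was called higher in APCs with 2.84 (2.09 to 3.70). Emilin2, which carries a globular C1q domain, had 584, 380.5 and 247 TPM and was not called in either comparison.

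C5ar2, the second receptor of C5a, named here after its values were seen, had 10.4 TPM in the bone marrow library, 4.98 in spinal cord monocytes and 4.78 in APCs, and was not called in the spinal cord at -0.74 (98% interval -0.97 to -0.51), whereas C5ar1 rose there. With TPM plus 0.1 and a plain 2-fold change C5ar2 had -1.05 there and was called lower.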
